A study of Homo sapiens with 12 samples.

Results

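Long noncoding RNAs were compared between fast and parental populations of MDA-MB-231, a human cell line from a triple-negative breast cancer. The fast cells had been captured by their trajectory, and the parental cells are those they were set against. The genes taken were those named LINC (long intergenic noncoding RNA) or SNHG (small nucleolar RNA host gene) with a number, together with MALAT1, NEAT1, GAS5, MEG3, H19, DANCR and TUG1. The genes were chosen by their measured level: a gene was a member where its mean reached 0.5 CPM (its share of the counts of a library, scaled as counts per 1e6) over the 6 fast or the 6 parental libraries. Of 661 genes with such a name, among 60234 in the table, 128 met this rule: 108 LINC genes, 15 SNHG genes, and GAS5, MALAT1, NEAT1, DANCR and TUG1. H19 averaged 0.0925 CPM in fast libraries and 0.175 CPM in parental libraries and MEG3 had 0 counts, so neither was a member, and 289 of the 533 other genes with such a name had 0 counts in all 12 libraries. Just inside the threshold, LINC00211 averaged 0.505 CPM in fast libraries and 0.300 CPM in parental libraries, and just outside it, LINC00115 averaged 0.441 CPM in fast libraries and 0.499 CPM in parental libraries.

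Total RNA from cultured cells gave 12 libraries, with 3 fast and 3 parental ones in both of 2 batches. Their totals ran from 53267145 to 75944907 counts. Both populations come from 1 cell line, no other treatment or genotype is named, and the submitters call the 3 libraries of a batch technical replicates, so a p-value here reflects library spread alone, which may be technical. The line's mesenchymal markers were present, with VIM at 6912 CPM in fast libraries and 5050 CPM in parental libraries. Its low epithelial and hormone receptor markers were at most 4 counts in a library for CDH1 and 0.139 CPM in each population for ESR1. Against the label, PGR, the progesterone receptor, stood at 2.05 CPM in fast libraries and 0.477 CPM in parental libraries, and EPCAM, an epithelial adhesion protein, at 11.2 CPM in both. Reads of the members made up 0.238% to 0.284% of each library. Their depth varied widely, since 32 members averaged at least 10 CPM, 28 averaged under 1 CPM, and the least counted one had 290 counts over the 12 libraries.

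Long noncoding RNAs are transcribed and usually spliced like messenger RNAs but are not known to act through a long protein. An SNHG gene carries small nucleolar RNAs (snoRNAs) in its introns. These guide the chemical modification of ribosomal RNA, box C/D snoRNAs with 2′-O-methylation and box H/ACA snoRNAs with pseudouridylation. The spliced exons of many such hosts begin with a run of pyrimidines, as the messenger RNAs of ribosomal proteins do, and are removed by nonsense-mediated decay when ribosomes enter them. GAS5 is a host of this kind, and DANCR, known for holding back differentiation of progenitor cells, also carries a snoRNA. MALAT1 collects in nuclear speckles and NEAT1 is the RNA scaffold of paraspeckles. LINC is a naming class and not a family, so its members share no common role.

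The start regions of 8 host genes are shown: 5 hosts with lower levels in fast cells (SNHG18, SNHG3, DANCR, SNHG12 and SNHG1) and 3 with small or no differences (SNHG7, SNHG16 and SNHG5). Whether the start sequence has a part in their levels was not tested. Each line gives 40 bases before and 40 bases from the RefSeq start, 5′ to 3′ on the gene's strand, on GRCh38.p14, a different build from that of the counts. Capitals mark TATAA beginning 40 to 20 bases before the start, and a C at the start that at least 4 further C or T follow without a break.
SNHG18, chr5:9546160-9546239, plus strand: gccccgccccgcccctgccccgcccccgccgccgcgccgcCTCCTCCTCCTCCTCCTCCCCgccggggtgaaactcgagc
SNHG3, chr1:28505903-28505982, plus strand: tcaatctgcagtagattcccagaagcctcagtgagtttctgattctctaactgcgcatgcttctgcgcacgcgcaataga
DANCR, chr4:52712354-52712433, plus strand: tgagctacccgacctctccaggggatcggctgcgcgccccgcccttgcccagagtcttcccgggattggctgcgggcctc
SNHG12, chr1:28581834-28581913, minus strand: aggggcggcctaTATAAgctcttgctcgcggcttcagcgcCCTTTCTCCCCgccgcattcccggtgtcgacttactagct
SNHG1, chr11:62855846-62855925, minus strand: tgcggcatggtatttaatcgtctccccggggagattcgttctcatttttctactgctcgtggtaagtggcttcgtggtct
SNHG7, chr9:136728145-136728224, minus strand: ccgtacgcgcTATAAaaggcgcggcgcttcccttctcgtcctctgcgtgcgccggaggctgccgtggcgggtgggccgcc
SNHG5, chr6:85678694-85678773, minus strand: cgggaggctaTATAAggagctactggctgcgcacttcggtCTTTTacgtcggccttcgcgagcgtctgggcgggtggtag
SNHG16, chr17:76557724-76557803, plus strand: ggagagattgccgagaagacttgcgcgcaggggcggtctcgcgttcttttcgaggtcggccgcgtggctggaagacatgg

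The RefSeq table held a promoter of 300 bases for 97 of the 128 members, 16 of them SNHG genes or others of the 7 names. The pyrimidine start was found in 6 of 97 members (6.19%), against 4.07% of 35116 promoters in the table. Here and below a single promoter was used for each member, while the shares of all promoters count every promoter of a gene. Of the 16 host and other named genes, SNHG18, SNHG12 and SNHG5 had it, with runs of 21, 11 and 5 pyrimidines. SNHG7 and SNHG1 fell short with runs of 4 and 3, and GAS5 had 0. The run was sought only at the exact RefSeq base, so a start used a few bases away would be missed. TATAA at that place, on the gene's strand, was found in 5 of 97 members (5.15%), against 3.91% of all promoters, and SNHG5, SNHG7, SNHG8 and SNHG12 were 4 of these. CACGTG, the same on both strands, was found anywhere in the promoter of 6 of 97 members (6.19%), against 7.26% of all promoters. The marked letters occur both in hosts with lower levels in fast cells and in SNHG5, which was not called.

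Differences ran in both directions among the members. Read counts were tested with edgeR's quasi-likelihood test with a batch term, Benjamini-Hochberg adjustment over the 22668 genes that passed the low-count filter, and a threshold of 0.05. By this test 63.4% of all genes were called, 31.9% higher and 31.5% lower in fast cells. At 0.5 CPM or more in both populations, 72.0% of 17159 genes were called, 38.4% higher and 33.6% lower. Of the 111 members at that level in both populations, 69 (62.2%) were called, 33 of them upward and 36 downward. The other 17 members reached 0.5 CPM in 1 population only, 6 in fast and 11 in parental cells. The rule that chose them used those levels, so they had to differ, and their values are given below with no test. All 128 passed the low-count filter, and the median log2 fold change, fast over parental, was 0.00 over the 111 members and 0.01 over all genes tested.

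Counts by class of name are likewise given for the 111 members at 0.5 CPM in both populations. Of 92 LINC members the edgeR test called 30 higher, 27 lower and 35 not, with a median of 0.01 on the log2 scale. Of 14 SNHG members 2 were higher, 7 were lower and 5 were not called, with a median of -0.15. GAS5 and DANCR were lower, MALAT1 was higher, and NEAT1 and TUG1 were not called. A call with a change of at least 2-fold downward was made for 10 of the 111 members (9.01%), against 6.92% of all genes tested and 2.93% of those at 0.5 CPM in both populations. Upward, it was made for 5 of the 111 (4.5%), all of them LINC, against 3.98% and 2.83%. The ranges of the 6 fast and the 6 parental libraries did not overlap for 38 of the 111 (34.2%), against 38.4% of all genes tested and 45.1% of those at 0.5 CPM in both populations.

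Among the snoRNA hosts SNHG3 had the largest difference of those present in both populations. SNHG3, which carries the box H/ACA snoRNAs SNORA73A and SNORA73B, had 44.7, 50.9 and 61.0 CPM in fast libraries and 189.4, 219.1 and 244.9 CPM in parental libraries, as the lowest, median and highest of 6, after TMM normalisation. No fast library came near a parental one. The level was 4.23-fold lower in fast cells (log2 fold change -2.08 ± 0.03 SE, edgeR adjusted p = 1.89e-33), at -2.09 in batch 1 and -2.07 in batch 2. In bulk RNA, fewer cells that express a gene and less RNA per cell cannot be told apart. SNHG3 overlaps RCC1, which encodes the nucleotide exchange factor of Ran, on the same strand, and shared 8.77% of its 50-base words with other transcripts. RCC1 stood at 137.2 CPM in fast libraries and 319.3 CPM in parental libraries (log2 fold change -1.22, edgeR adjusted p = 1.26e-28), and reads of their shared stretch cannot be assigned with certainty.

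DANCR and SNHG12 were lower by similar amounts. DANCR had 28.8, 32.7 and 37.0 CPM in fast libraries and 79.4, 89.5 and 99.1 CPM in parental libraries (lowest, median, highest), with no overlap. Its level was 2.74-fold lower in fast cells (log2 fold change -1.46 ± 0.03 SE, edgeR adjusted p = 1.11e-28), at -1.46 in each batch. SNHG12, whose introns hold SNORD99 among others, had 20.4, 22.0 and 26.0 CPM in fast libraries and 49.0, 60.7 and 70.3 CPM in parental libraries. Again the ranges stood apart, and the level was 2.63-fold lower in fast cells (log2 fold change -1.38 ± 0.04 SE, edgeR adjusted p = 1.60e-23). SNHG12 lies opposite TRNAU1AP, a factor of selenocysteine transfer RNA, which was also lower in fast cells (log2 fold change -1.08, edgeR adjusted p = 2.36e-20). Strand use in counting is not given, so reads of such opposite pairs cannot be told apart.

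SNHG1, SNHG8, SNHG10 and SNHG9 were lower by less than 2-fold. SNHG1, the host of a series of box C/D snoRNAs, had 77.7, 90.6 and 106 CPM in fast libraries and 140.4, 172.1 and 206.3 CPM in parental libraries, without overlap (log2 fold change -0.90 ± 0.03 SE, edgeR adjusted p = 1.28e-23). SNHG8 stood at 33.5 ± 1.96 CPM in fast libraries and 48.5 ± 4.69 CPM in parental libraries (SD, n = 6 each; log2 fold change -0.53 ± 0.05 SE, edgeR adjusted p = 4.38e-10), also without overlap. The less abundant SNHG10 averaged 3.52 CPM in fast libraries and 5.67 CPM in parental libraries (log2 fold change -0.69 ± 0.09 SE, edgeR adjusted p = 4.47e-08). GLRX5, which overlaps SNHG10 on the opposite strand, was also lower (-0.316, edgeR adjusted p = 2.78e-10). SNHG9 averaged 2.72 CPM in fast libraries and 4.52 CPM in parental libraries, and its ranges, up to 3.49 CPM in fast and down to 3.46 CPM in parental libraries, just met (log2 fold change -0.74 ± 0.10 SE, edgeR adjusted p = 3.05e-08).

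SNHG18 was not detected in the fast libraries. It had 0 counts in all 6 of them and 2.04, 3.05 and 4.17 CPM in parental libraries (lowest, median, highest), 0 counts against 1181 in total. With a floor of 3 counts over the fast libraries, its level was at least 401-fold lower in fast cells, a description with no test because SNHG18 entered the member list through its parental level alone. SEMA5A, a semaphorin of axon guidance whose start lies 125 bases away on the other strand, likewise had 0 counts in fast libraries and 786 in parental libraries, at least 267-fold lower. The parental level of SNHG18 was not even between batches, at 3.86 CPM in batch 1 and 2.28 CPM in batch 2.

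**Figure D1:**
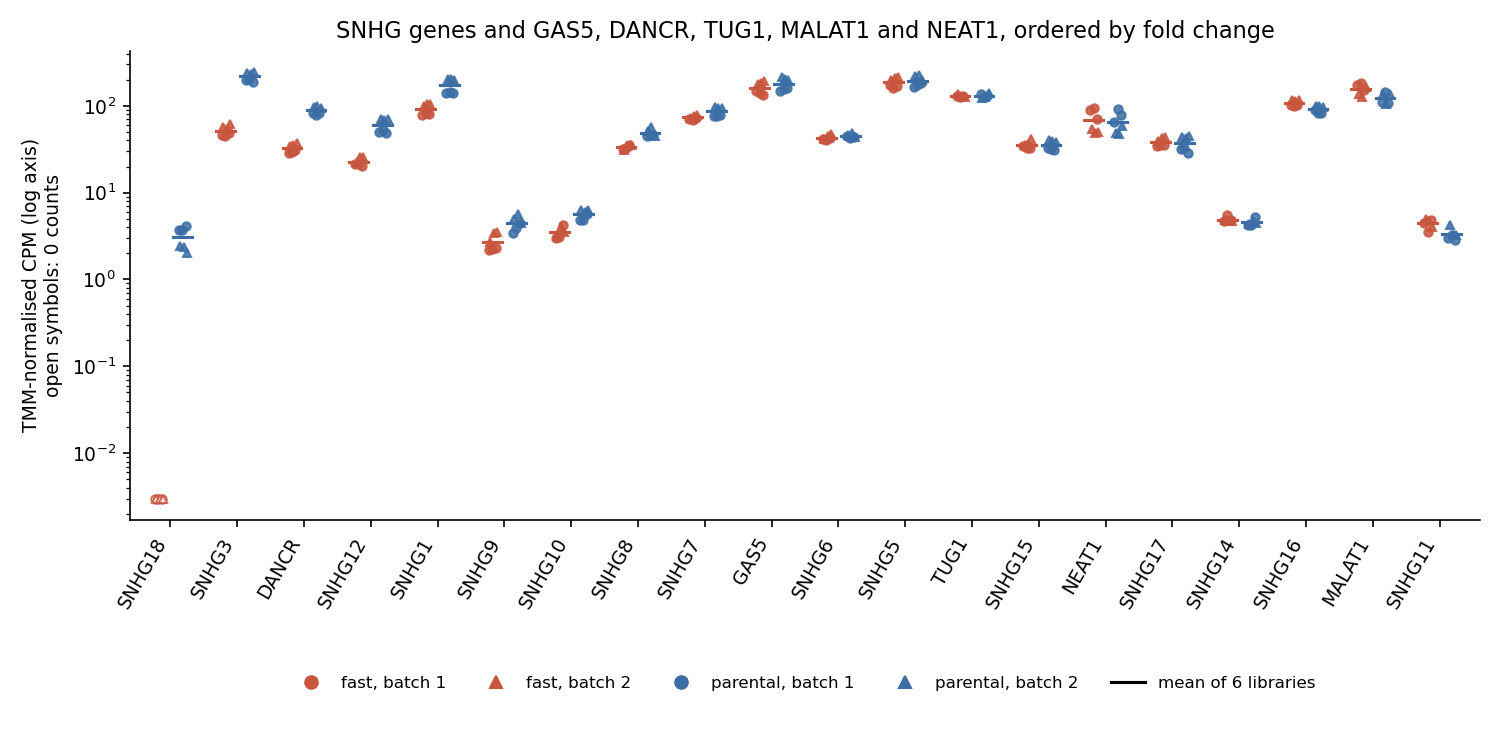
TMM-normalised CPM on a log10 axis for the 15 SNHG members and GAS5, MALAT1, NEAT1, DANCR and TUG1, with fast libraries left of parental libraries for each gene; every point is 1 library, and open symbols mark a level of 0. SNHG3, DANCR, SNHG12 and SNHG1 show separate clouds, with fast below parental, while SNHG5, TUG1 and SNHG15 overlap and SNHG18 has its 6 fast libraries at 0.

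The remaining hosts differed little or in the other direction. GAS5, also known as a decoy that binds the glucocorticoid receptor, had 132.2, 163 and 191 CPM in fast libraries and 148.8, 180.1 and 213.1 CPM in parental libraries. The ranges overlapped widely, and both populations were higher in batch 2, at 183.8 CPM in fast libraries and 206.0 CPM in parental libraries, than in batch 1, at 139.7 CPM in fast libraries and 155.0 CPM in parental libraries. The log2 fold change of GAS5 was -0.16 ± 0.03 SE (edgeR adjusted p = 1.15e-05), and the call was lost without the batch term (edgeR adjusted p = 0.299). SNHG16 rose, at 108.2 ± 8.04 CPM in fast libraries and 92.1 ± 7.96 CPM in parental libraries (SD, n = 6 each; log2 fold change 0.23 ± 0.03 SE, edgeR adjusted p = 3.46e-09), with 30.1% of its 50-base words shared with other transcripts. SNHG11 rose at a low level, with 4.45 CPM in fast libraries and 3.30 CPM in parental libraries (log2 fold change 0.43 ± 0.10 SE, edgeR adjusted p = 0.000199).

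SNHG5, the most abundant host, had 160.5, 186.3 and 214.7 CPM in fast libraries and 164.7, 190.5 and 226.4 CPM in parental libraries (log2 fold change -0.05 ± 0.03 SE, edgeR adjusted p = 0.147). SNHG6 (-0.08 ± 0.04 SE), SNHG14 (0.10 ± 0.08 SE), SNHG15 (0.00 ± 0.04 SE) and SNHG17 (0.05 ± 0.04 SE) were not called either, with edgeR adjusted p of 0.0669, 0.282, 0.946 and 0.288. SNHG14 is the long transcript of the imprinted Prader-Willi region, which carries the SNORD115 and SNORD116 clusters. Levels of different genes were compared per kilobase of annotated exon. On that scale SNHG5 was at 66.9 CPM per kb in fast and 69.4 CPM per kb in parental cells, second to LINC00657 (NORAD) at 106 and 82.5 CPM per kb. SNHG3 came next in parental cells at 53.5 CPM per kb. LINC00704 came next in fast cells, within 1 CPM per kb of GAS5 at 44.6 CPM per kb.

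The difference between populations varied between batches for 3 members, all of them hosts. In the edgeR interaction test 5.40% of all genes were called. SNHG7 was lower in fast cells by 0.11 on the log2 scale in batch 1 and by 0.33 in batch 2, a difference of -0.22 (edgeR adjusted p = 0.00693). SNHG7 averaged 73.5 CPM in fast libraries and 86.2 CPM in parental libraries over both batches (log2 fold change -0.22 ± 0.04 SE, edgeR adjusted p = 1.22e-06). It shared 27.6% of its 50-base words with transcripts of other genes, most of all with FAM69B on the opposite strand. FAM69B was also lower in fast cells (log2 fold change -0.66, edgeR adjusted p = 5.37e-13), and reads of this pair cannot be told apart. The difference for SNHG12 was -0.24, from -1.26 within batch 1 and -1.50 within batch 2 (edgeR adjusted p = 0.0308), and that for SNHG17 was -0.25, with 0.18 in batch 1 and -0.07 in batch 2 (edgeR adjusted p = 0.0286). These calls were unstable, since without fast batch 2 replicate 1 no member was called for a difference between batches, and without fast batch 1 replicate 2, fast batch 2 replicate 3 or parental batch 1 replicate 3 only 1 was. Of the 111 members at 0.5 CPM in both populations, 48 were called in both batches, each with the same sign, against 54.8% of all genes at that level.

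**Figure D2:**
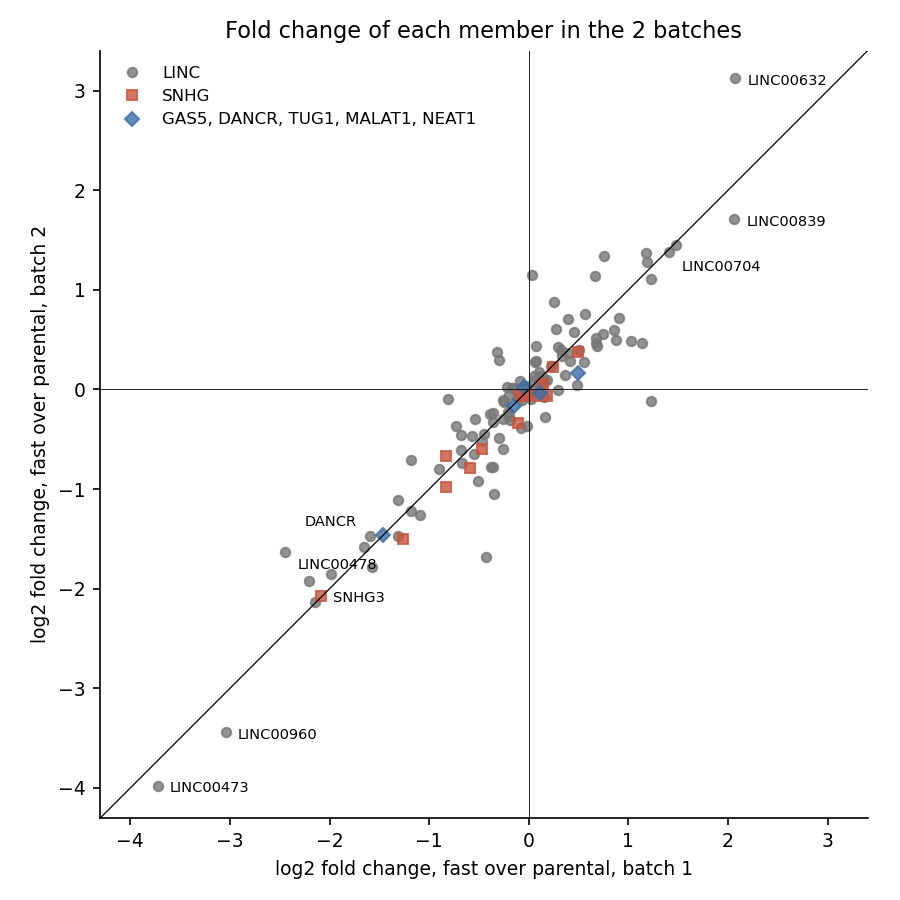
Log2 fold change, fast over parental, within batch 2 against that within batch 1 for 126 members, with 1 point per gene; the 2 members with 0 counts in fast cells are left out. Points lie along the line of equal change, and SNHG7, SNHG12 and SNHG17, the members called for a difference between batches, lie close to it.

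Few of the snoRNAs themselves could be followed. Of 46 snoRNAs listed for member hosts, 11 had a row whose gene lies inside the host on its strand, and 8 of these passed the low-count filter. The list held no snoRNA of SNHG14 or SNHG18. Some others had rows under their symbol that were not placed inside the host, and their counts were not used. None of the 8 was called higher in fast cells by edgeR, 3 were called lower and 5 were not called. That is 37.5% called, against 63.4% of all genes, of which 31.9% were higher and 31.5% lower. SNORA73B, carried by SNHG3, had 1.27 CPM in fast libraries and 3.53 CPM in parental libraries (log2 fold change -1.51 ± 0.13 SE, edgeR adjusted p = 1.07e-12). SNORD99, carried by SNHG12, had 0.461 CPM in fast libraries and 1.37 CPM in parental libraries (-1.56 ± 0.18 SE, edgeR adjusted p = 2.18e-09). SNORA26, carried by DANCR, had 0.222 CPM in fast libraries and 0.407 CPM in parental libraries (-0.89 ± 0.33 SE, edgeR adjusted p = 0.0176). The symbol SNORA26 is carried by 11 genes of the table, and the one inside DANCR was used. Reads of unspliced host RNA and of the mature snoRNA cannot be told apart here.

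Proteins that work with these RNAs were listed with earlier results of these data known, and of 80 tested 32 were higher, 34 were lower and 14 were not called by edgeR, 82.5% called against 63.4% of all genes and 72.0% of those at 0.5 CPM in both populations. Of the 6 box H/ACA proteins 5 were lower and 1 was higher in fast cells, and their median was -0.36 on the log2 scale. DKC1, the pseudouridine synthase dyskerin, stood at 160.9 ± 14.4 CPM in fast libraries and 270.1 ± 34.1 CPM in parental libraries (SD, n = 6 each; log2 fold change -0.74 ± 0.03 SE, edgeR adjusted p = 8.02e-23). GAR1, another core protein, stood at 40.5 CPM in fast libraries and 67.6 CPM in parental libraries (-0.74 ± 0.03 SE), while NOP10 was higher at 77.2 CPM in fast libraries and 62.8 CPM in parental libraries (0.30 ± 0.03 SE). Of the 12 box C/D proteins 4 were higher and 6 were lower, among them NOP56, a core protein, at 297.4 CPM in fast libraries and 384.3 CPM in parental libraries (-0.37 ± 0.03 SE). Of the 23 nonsense-mediated decay factors 9 were higher and 9 were lower in fast cells. GSPT2 changed most, at 1.42 CPM in fast libraries and 11.2 CPM in parental libraries (log2 fold change -2.99 ± 0.09 SE). The exon junction protein MAGOH stood at 42.0 CPM in fast libraries and 74.8 CPM in parental libraries (-0.83 ± 0.03 SE), and UPF1, the central helicase of the pathway, was not called (0.04 ± 0.04 SE, edgeR adjusted p = 0.384).

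MALAT1, NEAT1 and TUG1 are long nuclear or partly nuclear RNAs and showed small differences. MALAT1 had 126, 159 and 184.9 CPM in fast libraries and 105.9, 124.5 and 142.5 CPM in parental libraries (lowest, median, highest), with overlapping ranges. It was called higher in fast cells (log2 fold change 0.33 ± 0.12 SE, edgeR adjusted p = 0.0352), at 0.49 in batch 1 and 0.16 in batch 2. That call was lost without the low-count filter (edgeR adjusted p = 0.053), in either batch alone (0.051 and 0.466), and without 1 of 6 libraries in turn (0.062 to 0.07): fast batch 1 replicates 1 and 2, fast batch 2 replicate 3, parental batch 1 replicates 1 and 3, and parental batch 2 replicate 2. NEAT1 had 48.9, 61.8 and 95.1 CPM in fast libraries and 47.3, 62.5 and 92.2 CPM in parental libraries, and was not called (log2 fold change 0.04 ± 0.11 SE, edgeR adjusted p = 0.752). Its level followed the batch, at 85.2 CPM in fast libraries and 78.7 CPM in parental libraries of batch 1, and 50.7 CPM in fast libraries and 51.8 CPM in parental libraries of batch 2.

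TUG1 stood at 129.9 ± 4.14 CPM in fast libraries and 130.9 ± 6.75 CPM in parental libraries (SD, n = 6 each), a log2 fold change of -0.01 ± 0.03 SE (edgeR adjusted p = 0.770). Of 20 paraspeckle proteins 7 were higher and 9 were lower in fast cells. NONO, which binds NEAT1, stood at 364.9 CPM in fast libraries and 543.1 CPM in parental libraries (log2 fold change -0.57 ± 0.02 SE), and NUDT21, a 3′-end processing factor, at 253.9 CPM in fast libraries and 167.2 CPM in parental libraries (0.60 ± 0.03 SE). Of 15 nuclear speckle proteins 7 were higher and 4 were lower in fast cells, with SRSF6 (0.31 ± 0.03 SE) and SRSF1 (-0.30 ± 0.02 SE), both splicing factors, on opposite sides. Of 5 tested genes that act with H19 or IGF2, 4 were higher and 1 was lower in fast cells. Beside the counts of these lists, 38.4% of all genes at 0.5 CPM in both populations were called higher and 33.6% lower. IGF2, the imprinted partner of H19, stood at 3.52 CPM in fast libraries and 0.931 CPM in parental libraries (1.91 ± 0.14 SE, edgeR adjusted p = 1.52e-14).

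The abundant LINC members mostly showed modest differences. LINC00657, now named NORAD and known for binding the Pumilio proteins, had 546.3, 562.7 and 595.2 CPM in fast libraries and 410.7, 442.4 and 474.3 CPM in parental libraries. The ranges did not overlap, and NORAD was higher in fast cells (log2 fold change 0.36 ± 0.02 SE, edgeR adjusted p = 5.96e-15), although 35.3% of its 50-base words occur in other transcripts. LINC00152 (now CYTOR) had 79.3 CPM in fast libraries and 74.7 CPM in parental libraries. Its call (log2 fold change 0.09 ± 0.04 SE, edgeR adjusted p = 0.0310) was lost with DESeq2 (adjusted p = 0.0748), under 5 other ways of scaling, filtering or modelling, in either batch alone, and on leaving out any 1 of 4 libraries, namely fast batch 2 replicates 2 and 3, parental batch 1 replicate 1, and parental batch 2 replicate 3 (edgeR adjusted p = 0.0502 to 0.112). LINC01116 at 27.3 ± 0.795 CPM in fast libraries and 33.1 ± 1.88 CPM in parental libraries, and LINC01128 at 17.8 ± 1.28 and 22.6 ± 1.11 CPM, were lower (SD, n = 6 each; log2 fold changes -0.28 ± 0.04 and -0.34 ± 0.05 SE, edgeR adjusted p = 1.71e-07 and 4.67e-08). LINC00667, at 22.1 CPM in fast libraries and 21.0 CPM in parental libraries, was not called (0.07 ± 0.04 SE, edgeR adjusted p = 0.187).

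LINC00704, now named MANCR after its link to mitosis, had the largest rise among the abundant members. It had 78.0, 88.0 and 91.6 CPM in fast libraries and 29.1, 33.1 and 35.4 CPM in parental libraries (lowest, median, highest). Every fast library was more than 2-fold above every parental one. The level was 2.62-fold higher in fast cells (log2 fold change 1.39 ± 0.03 SE, edgeR adjusted p = 3.97e-27). LINC00705, its neighbour on chromosome 10, with which it shared 8.77% of its 50-base words, had 3.72, 4.97 and 5.72 CPM in fast libraries and 1.53, 1.95 and 2.81 CPM in parental libraries (1.27 ± 0.12 SE, edgeR adjusted p = 2.48e-10). Of the 9 members on chromosome 10, 7 were called higher in fast cells, LINC00704 and LINC00705 among them. Of all genes at 0.5 CPM in both populations 38.4% were called higher, and the share for chromosome 10 alone was not computed. LINC00707 was lower in fast cells at 6.47 CPM, against 8.57 CPM in parental libraries (-0.40 ± 0.07 SE, edgeR adjusted p = 6.48e-06). LINC00702 was not called (-0.24 ± 0.12 SE, edgeR adjusted p = 0.0812).

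Other LINC genes rose at lower levels. LINC00839 had 5.20, 5.53 and 5.99 CPM in fast libraries and 1.18, 1.54 and 1.84 CPM in parental libraries, without overlap (3.66-fold higher, log2 fold change 1.87 ± 0.10 SE, edgeR adjusted p = 5.13e-18). LINC00601 averaged 7.57 CPM in fast libraries and 3.38 CPM in parental libraries (1.16 ± 0.08 SE, edgeR adjusted p = 1.42e-14). LINC00880 averaged 1.45 CPM in fast libraries and 0.525 CPM in parental libraries (1.47 ± 0.17 SE, edgeR adjusted p = 4.30e-09), with 52.3% of its 50-base words shared with LINC02029. LINC00632 reached the threshold in fast cells only, with 0.386, 0.591 and 0.936 CPM there and 0.0553, 0.0926 and 0.155 CPM in parental libraries. These are 250 counts in fast and 40 counts in parental libraries, a 6.04-fold difference given with no test, and the ranges did not overlap. LINC00632 is the gene from which the circular antisense transcript of CDR1 arises, and CDR1, on the opposite strand, stood at 0.612 CPM in fast libraries and 0.146 CPM in parental libraries.

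**Figure D3:**
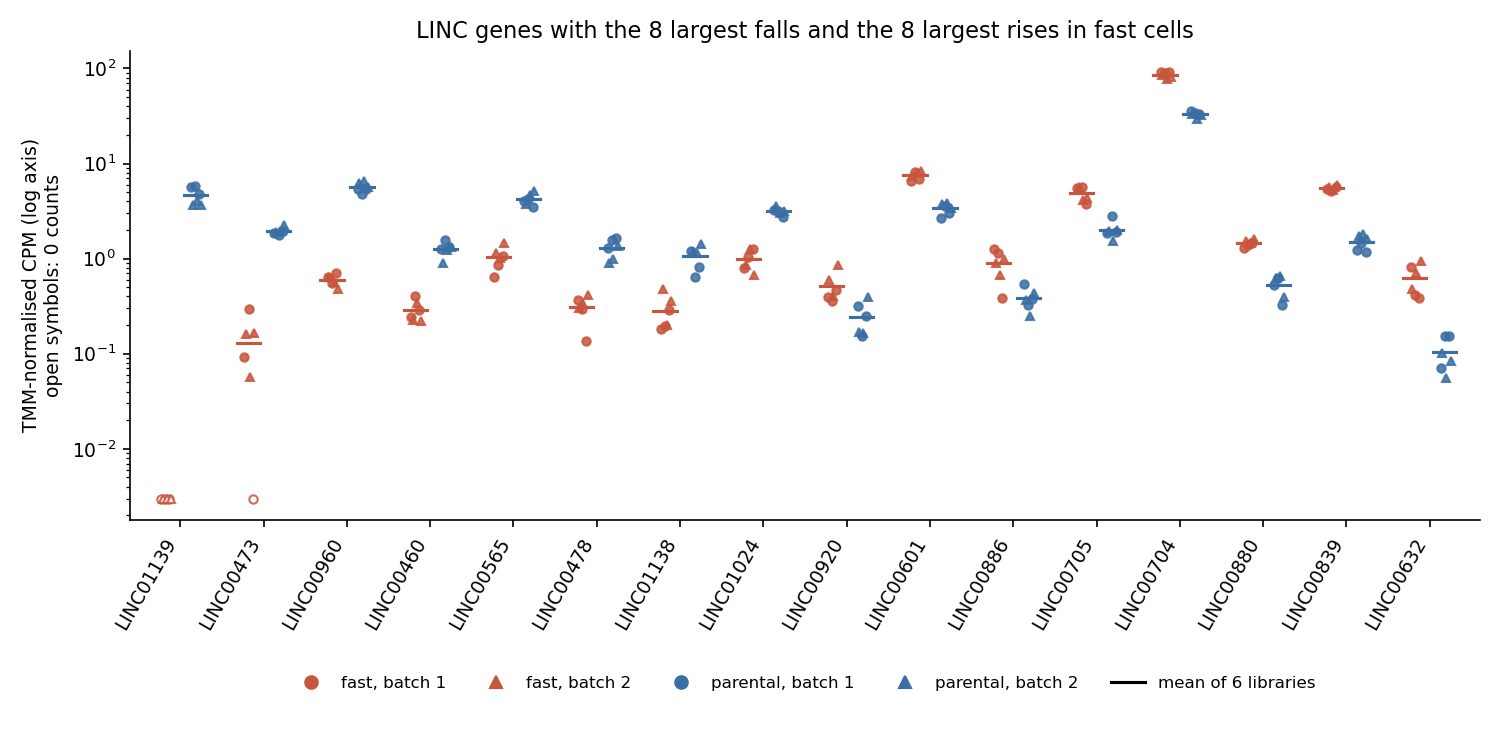
TMM-normalised CPM on a log10 axis for 16 LINC members, the 8 with the largest rises and the 8 with the largest falls, with fast libraries left of parental libraries for each gene; every point is 1 library, and open symbols mark a level of 0. LINC00704 and LINC00839 have all fast libraries above all parental ones, while LINC00960 and LINC01139 have them below, LINC01139 at 0.

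The largest falls among LINC genes were larger than the largest rises. LINC00960 had 0.476, 0.606 and 0.713 CPM in fast libraries and 4.81, 5.59 and 6.53 CPM in parental libraries. It was 9.50-fold lower in fast cells (log2 fold change -3.25 ± 0.12 SE, edgeR adjusted p = 1.33e-22), while ZNF717 on the opposite strand changed little (-0.24, edgeR adjusted p = 0.0279). LINC00565 averaged 1.03 CPM in fast libraries and 4.23 CPM in parental libraries (-2.05 ± 0.13 SE, edgeR adjusted p = 3.84e-16). LINC01024, whose current symbol MALINC1 also refers to mitosis, averaged 0.982 CPM in fast libraries and 3.14 CPM in parental libraries (-1.68 ± 0.14 SE, edgeR adjusted p = 7.02e-13). None of these 3 had overlapping ranges.

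Several LINC members reached the threshold in parental cells only, and their values carry no test. LINC01139, also called LINK-A and described in triple-negative breast cancer, had 0 counts in all 6 fast libraries and 3.69, 4.43 and 5.86 CPM in parental libraries. With 1785 counts in parental libraries and the same floor of 3 counts, it was at least 606-fold lower in fast cells. LINC00473, known as a target of cyclic AMP signalling, had 0, 0.126 and 0.298 CPM in fast libraries and 1.77, 1.91 and 2.28 CPM in parental libraries, 53 counts against 762. LINC00460 averaged 0.288 CPM in fast libraries and 1.28 CPM in parental libraries, and LINC01138 averaged 0.284 CPM in fast libraries and 1.07 CPM in parental libraries. The ranges of these 4 genes did not overlap between populations.

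LINC00478, now MIR99AHG, carries 3 microRNAs in its introns on chromosome 21. It had 0.135, 0.318 and 0.416 CPM in fast libraries and 0.894, 1.33 and 1.63 CPM in parental libraries, 4.18-fold lower in fast cells without overlap, again with no test since only the parental level reached the threshold. The mature microRNAs, from RefSeq on GRCh38.p14, are shown because they are the known products of this gene, with the seed (bases 2 to 8) in capitals.
hsa-miR-99a-5p, chr21:16539101-16539122, plus strand: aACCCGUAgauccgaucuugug
hsa-let-7c-5p, chr21:16539838-16539859, plus strand: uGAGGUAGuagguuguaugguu
hsa-miR-125b-5p, chr21:16590253-16590274, plus strand: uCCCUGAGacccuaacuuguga
The 3 seeds differ from one another. Their genes had next to no reads, with 0 counts in fast and 0 in parental libraries for MIR99A, 0 and 2 for MIRLET7C, and 1 and 3 for MIR125B2, and such counts say nothing of the mature microRNAs.

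Position along the chromosome was set beside each member through the median log2 fold change of its nearest tested genes with a mean of at least 1 CPM, up to 10 on each side. Of 67 called members with such a median and at 0.5 CPM in both populations, 52 (77.6%) had the same sign as it, against 78.9% of 11934 genes called at that level, so the share was near that of other genes. SNHG3 and SNHG12, close together on chromosome 1, lay among genes with medians of -1.10 and -1.07, against their own -2.08 and -1.38. DANCR lay among genes with a median of -0.21, SNHG1 among genes with -0.32, and LINC00704 among genes with 0.19. SNHG18 and LINC01139, at 0 counts in fast cells, lay among genes with medians of 0.15 and 0.25. Of the 6 X-linked members, LINC00894, LINC00630 and LINC01155 were called lower in fast cells by edgeR. Of all genes at 0.5 CPM in both populations 33.6% were called lower, and the share for the X chromosome alone was not computed. LINC00893 and LINC00106, which reached the threshold in parental cells only, had lower averages in fast cells, and LINC00632 had a higher one. The part that a shift shared by neighbouring genes has in the members' values was not tested.

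**Figure D4:**
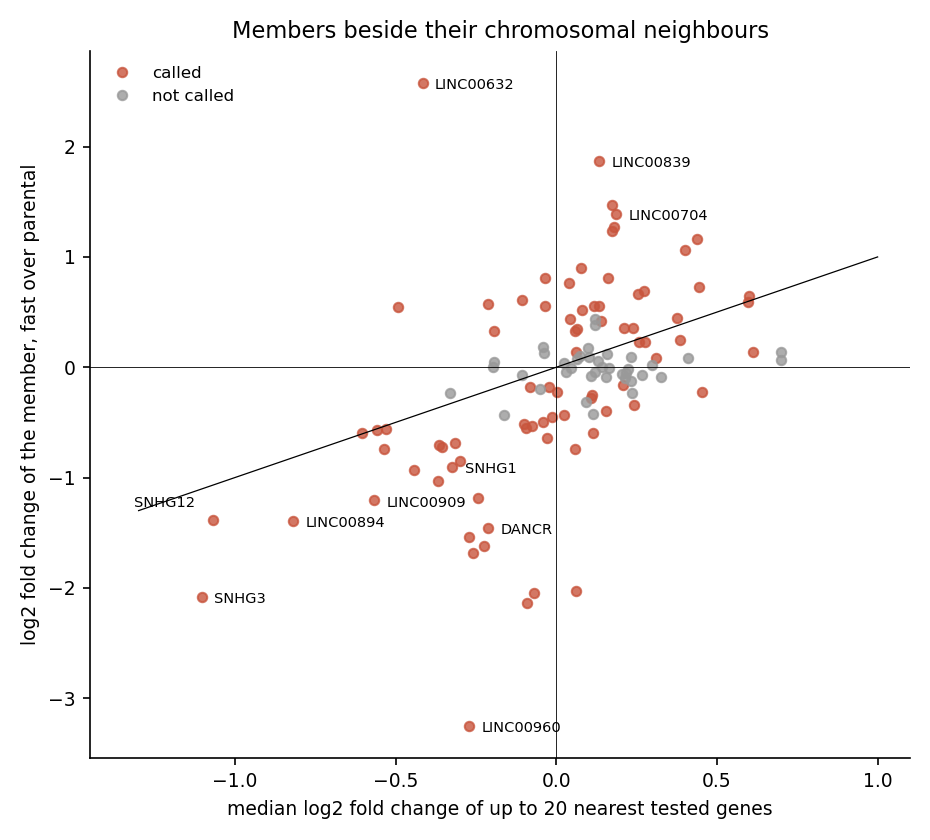
Log2 fold change, fast over parental, of 119 members against the median log2 fold change of their up to 20 nearest tested genes, with 1 point per member; members with 0 counts in fast cells or without a neighbour median are left out. SNHG3 and SNHG12 sit at neighbour medians near -1.1, while DANCR at -0.21 and LINC00704 at 0.19 lie far from theirs.

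Genes that start within 1000 bases of a member on the opposite strand were chosen after values had been seen, and gave 19 pairs. SLC3A2, the heavy chain of an amino acid transporter, starts 188 bases from SNHG1 and was higher in fast cells at 510.6 CPM, against 345.4 CPM in parental libraries (log2 fold change 0.57 ± 0.06 SE, edgeR adjusted p = 2.27e-06), the opposite direction to SNHG1. RPS2, a ribosomal protein whose start lies 99 bases from that of SNHG9, was at 1531 CPM in fast libraries and 1524 CPM in parental libraries (0.01 ± 0.03 SE, edgeR adjusted p = 0.861), while SNHG9 was lower. LINC00894 and CXorf40B on the X chromosome, 183 bases apart, were both lower in fast cells (-1.39 and -0.92, edgeR adjusted p of CXorf40B = 1.03e-18). LINC00936 and ATP2B1, a calcium pump, 341 bases apart, were both higher (0.69 and 0.44, edgeR adjusted p of ATP2B1 = 7.91e-16).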

How the data were processed

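The authors deposited read counts per gene, not normalised, for 60234 genes in 12 libraries of total RNA. The submitters' processing notes name Trimmomatic 0.32, STAR 2.3.0e, featureCounts 1.4.4 and the builds hg19 and GRCh37. Strand use and the treatment of reads with several matches are not given in the sources used here. All columns were matched to samples by their labels.

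Counts were analysed with edgeR 4.0.16 (R 4.3.3): TMM normalisation, the default filter (minimum count 10, minimum total 15, by population and batch), a robust quasi-likelihood fit with batch and population, and Benjamini-Hochberg adjustment over 22668 genes. A second model gave the difference of the effect between batches. The steps were tested on simulated data with independent libraries, no shared batch shift and few changed genes. The real data differ in these respects, so that run does not bear on the small calls here. Alternatives were DESeq2 1.42.0, limma-voom (limma 3.58.1), other scaling and filters, no batch term, a replicate block, sums of 3 libraries, each batch alone, other membership thresholds, neighbours' medians and each library left out. Counting error alone is small for abundant members at 53267145 to 75944907 counts per library. It is larger for members with few counts, such as LINC00632 with 4 to 10 counts in each parental library.

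Members and lists were chosen with earlier results of these data known. Named members were every SNHG gene and member of the 7 names, and of the LINC genes the 8 most abundant, the 8 largest rises, the 8 largest falls and those at 0.5 CPM in 1 population that changed at least 4-fold, with up to 3 called genes of each list. Members beside these, and UPF1, NOP10 and genes adjoining members, were chosen after their values were seen. GENCODE 29 (GRCh38) was used by gene ID for chromosome, gene order, exon length and transcripts, and matched 121 of 128 members.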

Additional observations from a re-analysis of the deposited data

Results flagged for a closer look

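Among 84 sets of 6 libraries, 1 per population and named member (sets at 0 left out), 3 held a library far from the other 5, where chance gives about 1 in 20. SNHG14 was at 5.545 CPM in fast batch 1 replicate 2, against at most 4.859 CPM in the other fast libraries. SNHG11 was at 4.216 CPM in parental batch 2 replicate 1, against at most 3.277 CPM in the other parental libraries. LINC00705 was at 2.806 CPM in parental batch 1 replicate 2, against at most 2.003 CPM in the other parental libraries. The difference between populations varied between batches for SNHG7 (log2 fold change in batch 2 minus batch 1 of -0.224), SNHG12 (-0.243) and SNHG17 (-0.247), with edgeR adjusted p of 0.00693, 0.0308 and 0.0286.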

How the results depend on the processing

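The number of members called, 86 of 128 with the 17 chosen through 1 population, was 69 to 89 under the other settings except 1. It was 87 with DESeq2, 75 with the 3 libraries of a group summed, 83 to 89 with 1 library left out, and, outside that range, 63 over the 94 members that share under 20% of their 50-base words (a setting chosen after seeing the data). Libraries with the same replicate number in their titles did not deviate together (correlations of -0.022 to 0.033, 2 of 6 best with their own number). Fast and parental replicate 2 of batch 1 carry different numbers in their column labels, so they may not be a pair. With a replicate block 86 members were called, 84 of them the same genes with the same sign, and LINC00152 was lost (edgeR adjusted p = 0.0501). Members called for a difference between batches numbered 3, but 1 with RLE size factors, 1 with a minimum mean of 1 CPM, and 0 to 4 with 1 library left out. Of 980 values of 43 named members over all settings, 900 were counted as unchanged, 24 lost the call and 10 gained it. Another 26 without a test moved beyond the spread between libraries, and 20 changed sign. A tested value was unchanged where it kept direction and side of the threshold, and one without a test where it stayed within that spread. After subtraction of the neighbours' median, a change of sign was counted for called members only. The changes of sign were in small effects. With 1 library left out, log2 fold changes ran from -0.037 to 0.018 for TUG1, from -0.005 to 0.103 for NEAT1 and from -0.031 to 0.019 for SNHG15. In batch 2 alone they were 0.021 for TUG1, -0.031 for NEAT1 and -0.066 for SNHG17, and SNHG15 was at 0.041 in batch 1 alone and 0.007 with summed libraries. After subtraction of the neighbours' median, SNHG16 was at -0.023, LINC00152 at -0.222 and LINC00094 at -0.471. SNHG17 at -0.077 and LINC00667 at -0.631, neither of them called, also changed sign there but are not among the 20. LINC00094 lost its call with summed libraries (edgeR adjusted p = 0.110) and in batch 1 alone (0.240). SNHG6 gained a call under 6 settings (edgeR or DESeq2 adjusted p = 0.015 to 0.0463), fast batch 2 replicate 3 or parental batch 2 replicate 3 left out among them. SNHG5 gained one without parental batch 2 replicate 3 (edgeR adjusted p = 0.0188) and LINC00667 without fast batch 1 replicate 2 (0.0462). The causes were not tested. Depth limits the 28 members under 1 CPM most.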

Other observations

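Of the LINC members, 9 are annotated as protein coding in GENCODE 29, several of them for small membrane or mitochondrial proteins. LINC00998, now SMIM30, was higher in fast cells at 32.0 ± 1.95 CPM, against 25.03 ± 1.99 CPM in parental cells (SD, n = 6 each; log2 fold change 0.36 ± 0.04 SE, edgeR adjusted p = 3.24e-09), without overlap of the libraries. LINC00493, now SMIM26, stood at 19.7 CPM in fast libraries and 17.9 CPM in parental libraries (0.14 ± 0.05 SE, edgeR adjusted p = 0.00908). LINC00094, now BRD3OS, stood at 26.0 CPM in fast libraries and 23.6 CPM in parental libraries (0.14 ± 0.04 SE, edgeR adjusted p = 0.00279). BRD3, which overlaps it on the opposite strand, was also higher (0.635, edgeR adjusted p = 6.46e-16). LINC00116, now MTLN, which encodes a mitochondrial micropeptide, stood at 13.1 CPM in fast libraries and 13.0 CPM in parental libraries and was not called (0.00 ± 0.06 SE, edgeR adjusted p = 0.974).

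Among other members that carry microRNAs, LINC00472, the host of MIR30C2 and MIR30A, was higher at 17.5 CPM in fast libraries and 12.0 CPM in parental libraries (0.56 ± 0.07 SE, edgeR adjusted p = 5.23e-08). MIR30C2 had 64 counts in fast and 24 counts in parental libraries, and MIR30A had 0 counts in both. LINC00969, with MIR570 in an intron, was lower at 9.14 CPM in fast libraries and 16.4 CPM in parental libraries (-0.85 ± 0.06 SE, edgeR adjusted p = 3.07e-14), and MIR570 had 46 counts in fast and 159 counts in parental libraries. These members were chosen after their values were seen, and whether such reads come from the host or from the small RNA was not tested.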
